A study of Mus musculus with 6 samples.

Results

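The genes described here are 10 neuropeptides and subtype markers of cortical GABAergic interneurons, Sst, Npy, Vip, Cck, Crh, Cort, Calb1, Calb2, Pvalb and Reln, chosen by gene symbol from a table of 24972 genes. All 10 symbols were in the table. RNA was sequenced from the cortex of mice at postnatal day 7 (P7), in 3 libraries labelled wildtype, with the genotype Zmiz1 f/f, and 3 labelled Zmiz1-KO, with the genotype Zmiz1 f/f;Emx1Cre. Both groups therefore carry the floxed Zmiz1 alleles, and only the second carries the Cre. Cre expressed from Emx1 acts in the progenitors of the dorsal telencephalon and their descendants, the cortical excitatory neurons and much of the glia, and not in most interneurons, which are born in the ventral telencephalon and migrate into the cortex. The labels do not say whether a library came from 1 animal, so the p values measure the spread between libraries, which may be in part technical. In one field the labels speak of progenitor cells, but the tissue is given as cortex, and all 11 markers of cortical excitatory neurons checked below were expressed.

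Cortical interneurons release GABA onto nearby neurons and are divided into subtypes by the peptides and calcium-binding proteins they make. Cells from the medial ganglionic eminence give rise to the somatostatin (Sst) and parvalbumin (Pvalb) classes, and those from the caudal ganglionic eminence to the Vip class and to many reelin-expressing cells. The peptides are cut from larger precursors, stored in dense-core vesicles and released to act on G protein-coupled receptors. Several of the 10 genes are also active outside interneurons: Cck and Calb1 in excitatory neurons, and Reln in the Cajal-Retzius cells of layer 1. In dissected tissue a lower value can come from fewer cells of a type or from less RNA in each cell, and these cannot be told apart.

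Values are read counts per gene that the authors normalized between libraries, called normalized counts below, and libraries are always given in the order replicate 1, 2, 3. The most common low value of a library, sought in a preset range, was 1.83 to 2.11 normalized counts. If this value stands for 1 read, which was not checked, 15494889 to 16551669 reads were counted in each wildtype library. In each Zmiz1-KO-labelled library they were 16266752 to 17858391. The targeted gene did not fall under its label. Zmiz1 stood at 8119, 7929 and 7461 normalized counts in wildtype and at 9944, 9779 and 9660 in the Zmiz1-KO-labelled libraries, a log2 fold change of 0.32 in a count over the whole gene, which does not separate the floxed exons from the rest. The count therefore does not check the labels, and every direction below rests on them. Each group held 2 libraries without Xist RNA and 1 with it, replicate 3 in wildtype and replicate 2 in Zmiz1-KO. Wildtype replicate 1 had the lowest levels of Gad1, Gad2, Slc32a1, Sst, Npy, Calb2 and Reln and the highest of Cck and Cort. Without it the log2 fold change was 0.18 for Sst, 0.09 for Npy, 0.07 for Calb2, 0.00 for Reln, -0.04 for Cck and -0.07 for Cort.

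Expression of several peptide genes is known to respond to cAMP through the cAMP response element, so their proximal promoters are shown first. The RefSeq table (GRCm38.p6) held the 250 bases before and 50 bases after the start of 7 of the 10 genes, in 8 windows, with Pvalb in 2. The motif TGACGTCA and its shorter core TGACG were searched on both strands, and every full motif also holds the core. Each sequence below runs 5′ to 3′ on the gene's strand, and the capitals mark the match.
Sst, chr16:23890874-23890903, minus strand: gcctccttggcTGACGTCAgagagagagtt
Vip, chr10:5639128-5639154, plus strand: gatcactactgTGACGtctttcgggga
Cck, chr9:121495726-121495752, minus strand: ctgctggactgCGTCAgcactgggtaa
Cort, chr4:149126766-149126792, minus strand: tccggcttgtgCGTCAccgcgtgagtg
Sst had the full motif, 48 to 41 bases before the RefSeq start. GENCODE places the start of Sst further upstream, so that this stretch lies inside its gene model. Vip had the core 79 to 75 bases before its start, and Cck and Cort had it on the opposite strand, 47 to 43 and 18 to 14 bases before theirs. No match lay in the windows of Npy, Reln and Pvalb. Among all 32851 promoter windows of the table, 1.79% held the full motif and 20.8% the core. These are matches of letters and not measured binding sites.

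The 10 genes covered a wide range of expression. Levels can be compared between genes only per length, here as normalized counts per kb of merged exons (GENCODE M21). In wildtype, Sst led at 5749 ± 181 per kb (SD, n = 3), followed by Npy at 1973 ± 113, Cck at 1483 ± 93.4 and Calb2 at 838 ± 150. Reln reached 391 ± 26.3 per kb and Calb1 324 ± 39.8, then came Cort at 188 ± 13.6. Vip with 71.6 ± 10.5 and Crh with 67.5 ± 2.67 followed, and Pvalb was last at 5.26 ± 4.12. The order was the same in the Zmiz1-KO-labelled libraries. The ranges of Reln and Calb1 overlapped in both groups, although Reln was above Calb1 within each of the 6 libraries. Vip and Crh also overlapped in both groups, with Vip above Crh in 5 of the 6 libraries. For scale, Slc32a1, the transporter that loads GABA into vesicles, stood at 1210 ± 182 per kb in wildtype, and Gad1, a GABA-synthesizing enzyme, at 606 ± 83.9.

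**Figure D1:**
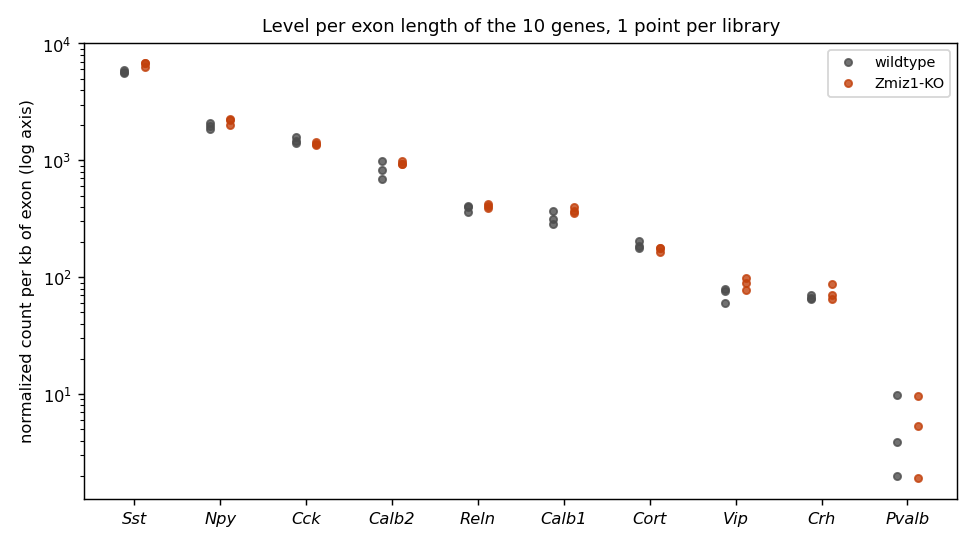
Normalized count per kb of exon on a log axis for the 10 genes, ordered by the wildtype mean, with 1 point per library and n = 3 per group. Sst lies between 5578 and 6749 per kb and Pvalb between 1.91 and 9.89, and the points of the 2 groups lie close together at every gene.

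None of the 9 genes that could be tested was called between the groups by limma at an adjusted p of 0.05, nor by limma-voom, against 0.411% of all genes tested. Of all tested genes 0.165% were called higher in the Zmiz1-KO-labelled libraries and 0.247% lower. The tests are two-sided, with Benjamini-Hochberg adjustment over the whole table. At an adjusted p of 0.1, 1 of the 9 passed, Sst, against 0.671% of all tested genes. At an unadjusted p of 0.05, 3 of the 9 passed, Sst, Calb1 and Vip, against 11.0% of all tested genes. In 7 of the 9 the mean log2 value was higher in the Zmiz1-KO-labelled libraries, as it was in 49.9% of all tested genes, and it was lower in Cck and Cort. The median log2 fold change of the 9 was 0.13, beside -0.00 over all genes, whose 5th and 95th percentiles were -0.29 and 0.34. In 1 of the 9, Sst, the groups did not overlap, against 16.3% of all tested genes, 8.10% with the Zmiz1-KO-labelled libraries above wildtype, as in Sst, and 8.16% below.

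**Figure D2:**
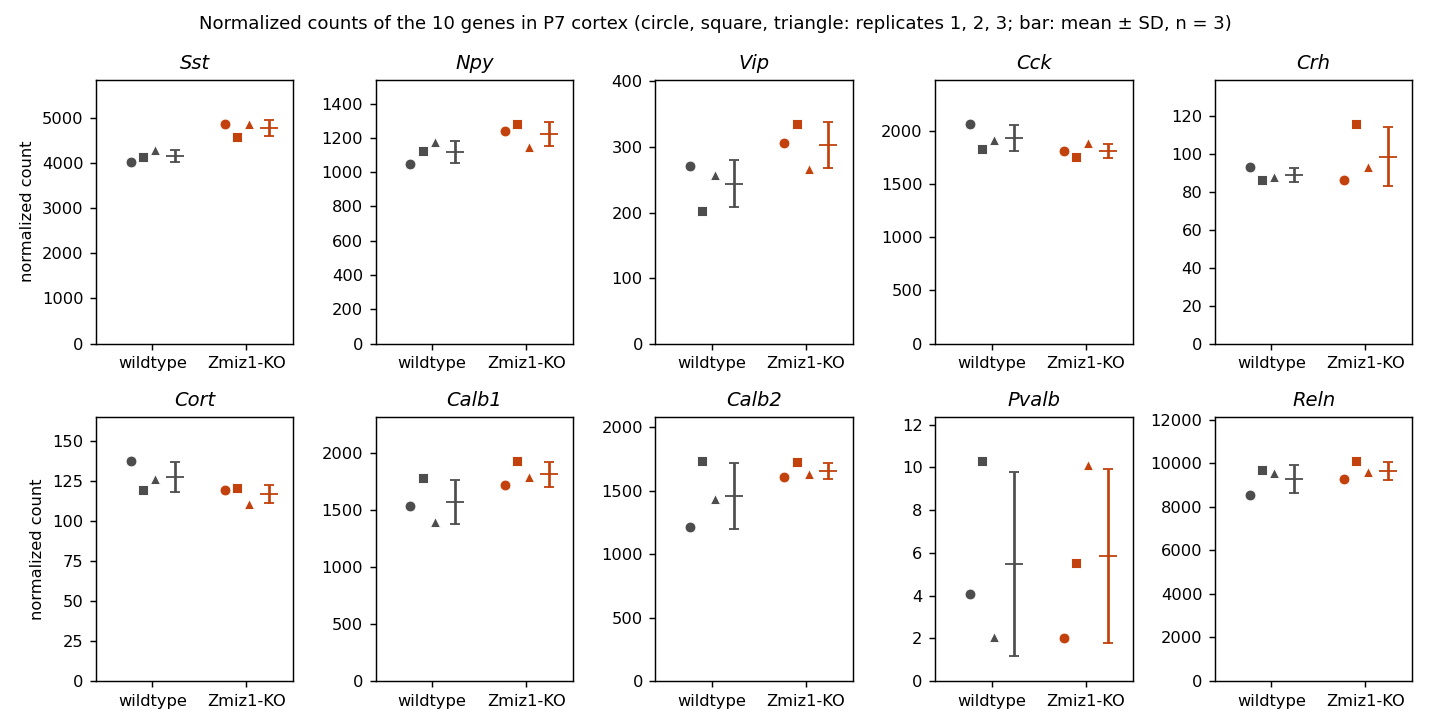
Normalized counts of each of the 10 genes in the 6 libraries, with the mean ± SD of each group beside the points (n = 3) and every axis starting at 0. The 3 Zmiz1-KO points of Sst, 4562 to 4866, lie above the 3 wildtype points, 4022 to 4282, and in the other panels the groups overlap.

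Sst encodes somatostatin, the peptide of the dendrite-targeting Martinotti cells and of long-range projecting GABAergic neurons. The gene lies at chr16:23889573-23890958 on the minus strand (GRCm38, as for all positions below). It stood at 4022, 4132 and 4282 normalized counts in wildtype and at 4865, 4562 and 4866 in the Zmiz1-KO-labelled libraries. All 3 of the latter were above every wildtype library. The means were 4145 ± 131 and 4764 ± 175 (SD, n = 3), a fold change of 1.15 and a log2 fold change of 0.20 with a standard error of 0.044 and a 95% interval of 0.11 to 0.29. With an unadjusted p of 0.000275 in limma, Sst ranked 72nd of all tested genes, and its adjusted p was 0.0598. The fold change lay within the 5th to 95th percentile range of all tested genes, and the standard error was the smallest of the 9 genes.

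The side of the threshold on which Sst fell changed with the libraries used, among other choices. Without Zmiz1-KO replicate 2, the lowest Sst value of its group, the log2 fold change was 0.23 and the adjusted p in limma 0.0164. With only the 4 libraries without Xist RNA they were 0.26 and 0.0206. Leaving out Zmiz1-KO replicate 3 gave 0.19 and 0.364, and leaving out Zmiz1-KO replicate 1 or wildtype replicate 1 gave adjusted p values of 0.305 and 0.187. The exact permutation test on Sst alone gave p = 0.1, the smallest that 3 libraries against 3 allow.

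**Figure D3:**
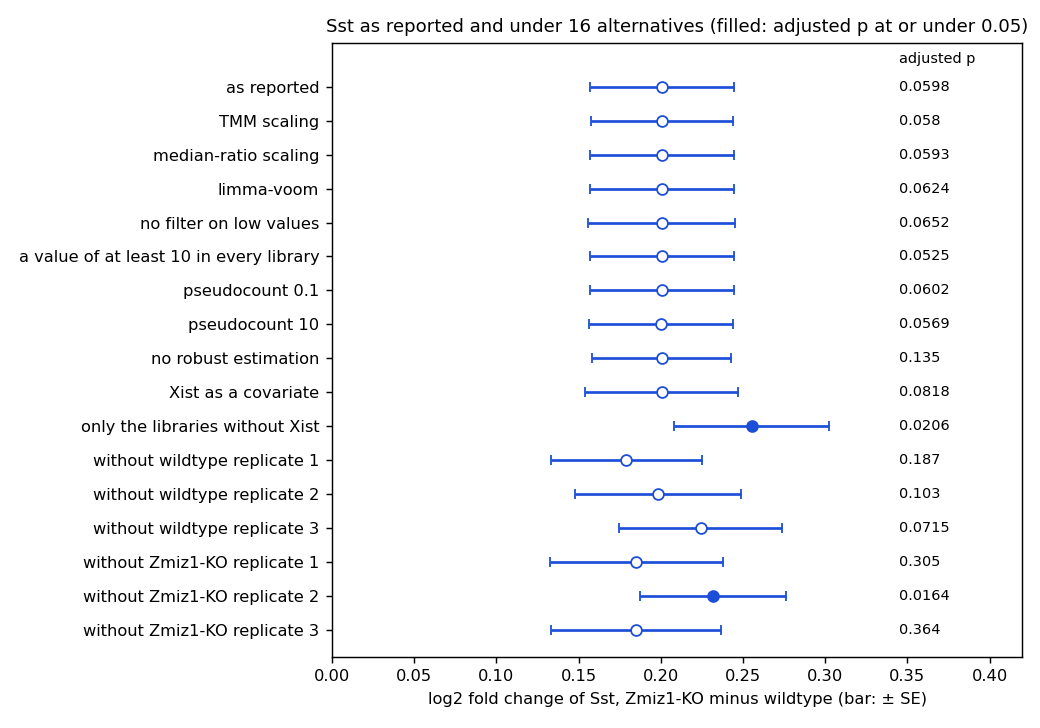
Log2 fold change of Sst (Zmiz1-KO minus wildtype, ± SE) as reported and under 16 alternatives, those other than the block on replicate numbers, with the adjusted p of each printed at the right. The estimates run from 0.18 to 0.26, and 2 points, those without Zmiz1-KO replicate 2 and with only the libraries without Xist, are filled for an adjusted p at or under 0.05.

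Cort and Npy are the other peptides of this lineage. Cort (chr4:149125034-149126763, minus strand) encodes cortistatin, which is closely related to somatostatin and binds the same receptors. It stood at 137, 119 and 126 normalized counts in wildtype and at 119, 120 and 111 in the Zmiz1-KO-labelled libraries, with a log2 fold change of -0.13, an interval of -0.45 to 0.20 and an adjusted p of 0.835 in limma. The direction was the opposite of that of Sst, and the difference between these 2 fold changes was not tested. Npy (chr6:49822710-49829507, plus strand), neuropeptide Y, is made by many Sst cells and by neurogliaform cells. Its values were 1049, 1123 and 1177 in wildtype and 1241, 1282 and 1145 in the Zmiz1-KO-labelled libraries. The lowest of the latter fell within the wildtype range, and the log2 fold change of 0.13 (SE 0.065) had an adjusted p of 0.484 in limma.

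Vip, Cck and Crh mark cells that are mostly of caudal origin. Vip (chr10:5639218-5647617, plus strand) encodes the vasoactive intestinal peptide of interneurons that inhibit other interneurons. It had 270, 203 and 258 normalized counts in wildtype and 307, 336 and 266 in the Zmiz1-KO-labelled libraries. The log2 fold change of 0.32 (SE 0.13) was the largest of the 9 in size, but wildtype replicate 1 lay above Zmiz1-KO replicate 3, and the adjusted p in limma was 0.369. Its estimate ran from 0.19 to 0.41 when single libraries were left out.

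Cck (chr9:121489824-121495694, minus strand), the cholecystokinin of basket cells and of many excitatory neurons, stood at 2066, 1826 and 1912 normalized counts in wildtype and at 1811, 1750 and 1880 in the Zmiz1-KO-labelled libraries. The highest value was that of wildtype replicate 1, and the other 5 libraries lay between 1750 and 1912. The log2 fold change was -0.09 (SE 0.056), with an adjusted p of 0.587 in limma. Crh (chr3:19693401-19695396, minus strand), corticotropin-releasing hormone, is made in the cortex by a small set of interneurons. It had 93.1, 86.3 and 87.9 normalized counts in wildtype and 86.3, 116 and 93.3 in the Zmiz1-KO-labelled libraries. A single library, Zmiz1-KO replicate 2, stood above the rest, and the log2 fold change of 0.13 (adjusted p of 0.855 in limma) became 0.01 without it. The 95% interval of Crh, from -0.25 to 0.52, takes in moderate differences in either direction.

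Calb1, Calb2 and Pvalb encode the calcium-binding proteins calbindin, calretinin and parvalbumin, which buffer intracellular calcium. Calb1 (chr4:15881264-15908064, plus strand) stood at 1532, 1776 and 1395 normalized counts in wildtype and at 1712, 1926 and 1788 in the Zmiz1-KO-labelled libraries. Wildtype replicate 2 lay above Zmiz1-KO replicate 1, and the log2 fold change of 0.21 (SE 0.081) had an adjusted p of 0.354 in limma. Without that wildtype library it was 0.30 with an adjusted p of 0.0577, and with only the libraries without Xist RNA it was 0.08.

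Calb2 (chr8:110137502-110168210, minus strand) had 1211, 1734 and 1435 normalized counts in wildtype and 1607, 1724 and 1634 in the Zmiz1-KO-labelled libraries. Its spread was unequal, with an SD of 262 in wildtype and 61.4 in Zmiz1-KO. The log2 fold change of 0.20 (adjusted p of 0.648 in limma) was 0.07 without wildtype replicate 1 and 0.33 without wildtype replicate 2. These 2 wildtype libraries moved the estimate in opposite directions. Pvalb (chr15:78191114-78206400, minus strand), which is known to appear in the cortex mainly after the first postnatal week, was near the limit of detection. It had 4.06, 10.3 and 2.07 normalized counts in wildtype and 1.99, 5.51 and 10.1 in the Zmiz1-KO-labelled libraries. That is about 1 to 5 times the most common low value of each library. Pvalb did not pass the filter on low values and was not tested with the others, and the exact permutation test on it alone gave p = 1.

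Reln (chr5:21884454-22344702, minus strand) encodes reelin, a secreted protein that guides the layering of the cortex and is made after birth by interneurons and the remaining Cajal-Retzius cells. It stood at 8557, 9704 and 9559 normalized counts in wildtype and at 9262, 10093 and 9575 in the Zmiz1-KO-labelled libraries. The groups overlapped, with a log2 fold change of 0.06, a 95% interval of -0.05 to 0.16 and an adjusted p of 0.734 in limma. The interval is narrow and leaves out a difference the size of the Sst estimate. Its exons overlap those of Gm10475 on the opposite strand over 1.04% of their length, and the library kit does not keep the strand.

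**Figure D4:**
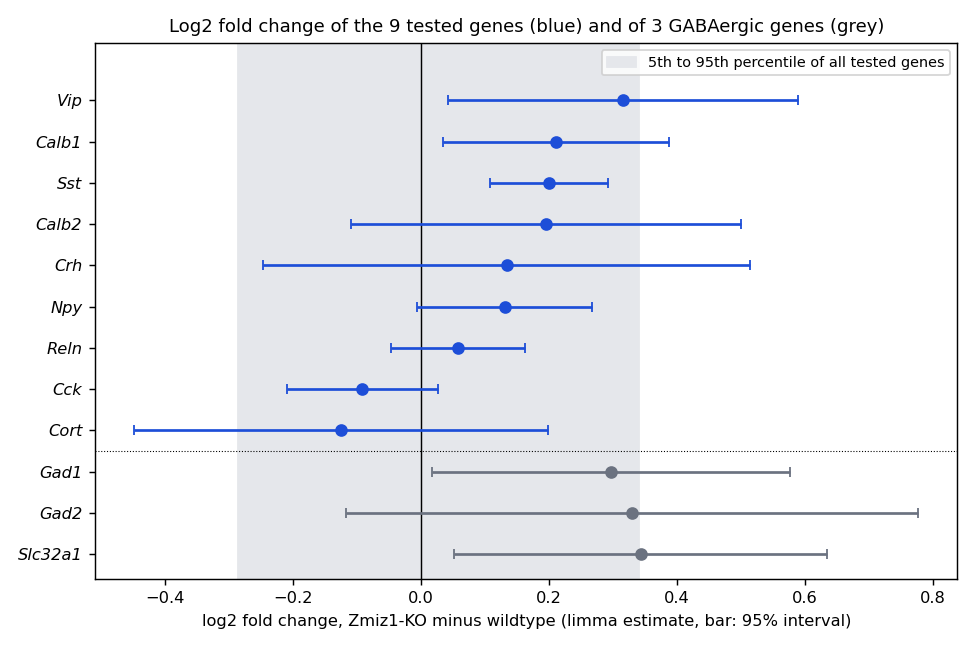
Log2 fold change (Zmiz1-KO minus wildtype) of the 9 tested genes in blue and of Gad1, Gad2 and Slc32a1 in grey, with 95% intervals from limma, and the 5th to 95th percentile of all tested genes as a grey band from -0.29 to 0.34. The interval of Sst, 0.11 to 0.29, lies wholly above 0, as do those of Vip and Calb1, and the other 6 members cross 0.

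The general GABAergic genes were also higher in the Zmiz1-KO-labelled libraries, by more than most of the 10 genes. Gad1, which makes most of the GABA in these cells, stood at 4144, 5356 and 4390 normalized counts in wildtype and at 5288, 6110 and 5602 in the Zmiz1-KO-labelled libraries. Slc32a1 stood at 2851, 3862 and 3439 against 4212, 4477 and 4103, without overlap. The log2 fold changes were 0.30 for Gad1, 0.33 for Gad2 and 0.34 for Slc32a1, with adjusted p values of 0.424, 0.578 and 0.378 in limma. Without wildtype replicate 1 they were 0.22, 0.20 and 0.23. Of the exon length of Slc32a1, 24.9% overlaps Gm14205 on the opposite strand.

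The mean log2 value of these 3 genes was 11.86 ± 0.22 in wildtype and 12.19 ± 0.10 in the Zmiz1-KO-labelled libraries (SD, n = 3), a difference of 0.32. That is more than the log2 fold change of any of the 9 tested genes, so that setting a gene against this mean lowers its log2 fold change by 0.32 and fixes a sign below 0 for all of them. On that scale Sst differed by -0.12, with overlapping groups and an exact permutation p of 0.4.

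The single libraries also varied together in part. Deviations from the group mean, over the 6 libraries, of Calb2 followed those of Slc32a1 (r = 0.98) and Gad2 (r = 0.96), and those of Reln followed Gad2 (r = 0.93). Cck ran the other way, with r = -0.97 against Slc32a1. Sst did neither, with r = 0.13 against Slc32a1 and -0.11 against Gad2. These correlations describe 6 points that share their libraries.

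**Figure D5:**
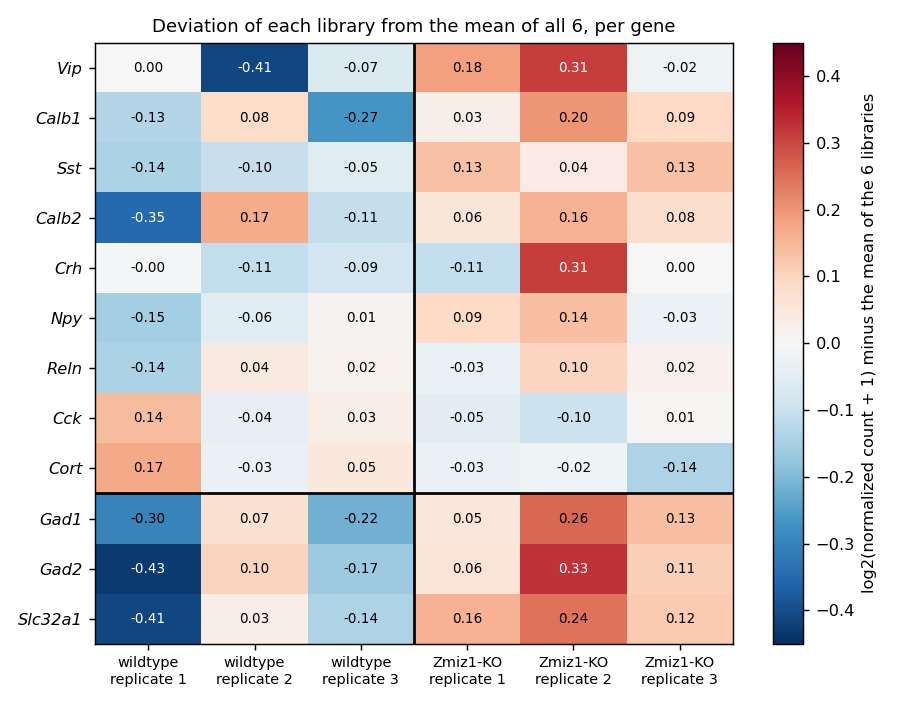
Deviation of log2(normalized count + 1) of each library from the mean of all 6, for the 9 tested genes (upper block) and for Gad1, Gad2 and Slc32a1 (lower block), with wildtype at the left and Zmiz1-KO at the right. Wildtype replicate 1 stands at -0.43 for Gad2, -0.41 for Slc32a1 and -0.35 for Calb2, against 0.14 for Cck and 0.17 for Cort, whereas its Sst, at -0.14, is close to the -0.10 of wildtype replicate 2.

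Markers of striatal projection neurons, which are GABAergic and lie below the cortex, moved in the same direction. Of 10 such markers all were higher on average in the Zmiz1-KO-labelled libraries, against 49.9% of all tested genes. In 6 these libraries lay wholly above wildtype, against 8.10% of all tested genes, and the median log2 fold change was 0.37. Pde10a, a phosphodiesterase of these neurons, rose (log2 fold change of 0.37, adjusted p of 0.0030 in limma), and Drd2, a dopamine receptor, had a log2 fold change of 0.50 with an adjusted p of 0.216, and of 0.33 without wildtype replicate 1. The summed level of the 10 markers was 14399 to 18603 normalized counts in wildtype, lowest in replicate 1, and 19799 to 22348 in the Zmiz1-KO-labelled libraries, and none was at 0 in any library. The part of this difference in the values of Sst, Vip, Calb1, Gad1, Gad2 and Slc32a1 was not tested.

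Other tissue next to the cortex differed less. The summed levels of 8 hippocampal markers were 3330 to 3746 normalized counts in wildtype and 3311 to 3790 in the Zmiz1-KO-labelled libraries, and those of 6 thalamic markers 4047 to 4147 and 3815 to 4090. For 5 olfactory bulb markers the sums were 1048 to 1245 and 1107 to 1462. No gene of these 3 lists was called by limma or limma-voom. With 1 gene at an unadjusted p of 0.05 in limma, they stand beside 11.0% of all tested genes. The genes with the smallest p were Man1a (log2 fold change of 0.23) and C1ql2 (0.50) for hippocampus, Prkcd (-0.13) and Slc17a6 (-0.08) for thalamus, and Th (0.14) and Eomes (-0.29) for olfactory bulb. Of 8 hypothalamic peptides 3 passed the filter, Avp, Trh (0.17) and Pomc (0.10), and none was called or had an unadjusted p under 0.05. Avp, vasopressin, ranged from 0 to 242 normalized counts, the highest in wildtype replicate 2. All 11 markers of cortical excitatory neurons were expressed in every library. Of these 2 fell, Emx1, which also drives the Cre (log2 fold change of -0.53, adjusted p of 0.0150 in limma), and Rorb, a layer 4 factor (-0.43, adjusted p of 0.0086). The adjusted p of Emx1 was 0.0871 without wildtype replicate 1, 0.0628 without wildtype replicate 3 and 0.0713 without Zmiz1-KO replicate 1, and that of Rorb was 0.0975 without Zmiz1-KO replicate 3. The mean was lower in 9 of the 11 and higher in 2, with a median log2 fold change of -0.11. An unadjusted p of 0.05 in limma was reached by 6, against 11.0% of all tested genes. In 4 the Zmiz1-KO-labelled libraries lay wholly below wildtype and in 1 wholly above, against 8.16% and 8.10% of all tested genes. The summed level of the 11 markers was 49985 to 55605 in wildtype and 49808 to 52047 in the Zmiz1-KO-labelled libraries.

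Among the receptors that read these peptides, none of the 15 tested was called by limma or limma-voom. At an unadjusted p of 0.05 in limma 3 passed, against 11.0% of all tested genes. In 9 the mean was higher in the Zmiz1-KO-labelled libraries and in 6 lower, with a median log2 fold change of 0.04. The smallest p belonged to Cckbr, the main cholecystokinin receptor of the brain, at 406, 366 and 396 normalized counts in wildtype and 466, 453 and 513 in the Zmiz1-KO-labelled libraries. The groups of Cckbr did not overlap, and its log2 fold change of 0.29 (SE 0.090) had an adjusted p of 0.218. Sstr1, a somatostatin receptor, followed with a log2 fold change of -0.15 and an adjusted p of 0.343. The receptor Cckar, at 0 to 12.7 normalized counts, did not pass the filter.

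The machinery that cuts, sorts and releases peptides had 16 genes, all of them tested. Of these 7 were higher and 9 lower on average, with a median log2 fold change of -0.01, and 1 was called. An unadjusted p of 0.05 in limma was reached by 4, against 11.0% of all tested genes. The Zmiz1-KO-labelled libraries lay wholly above wildtype in 1 and wholly below in 2, against 8.10% and 8.16% of all tested genes. Vgf, a neurosecretory protein precursor stored in dense-core vesicles, stood at 3202, 3282 and 3211 normalized counts in wildtype and at 3713, 3806 and 3829 in the Zmiz1-KO-labelled libraries. Its groups were far apart for their spread, and it rose by a log2 fold change of 0.23 (SE 0.042, adjusted p of 0.0222 in limma). The estimate of Vgf stayed between 0.22 and 0.24 under the alternatives, but its adjusted p passed 0.05 without wildtype replicate 1 (0.0784), wildtype replicate 3 (0.0704), Zmiz1-KO replicate 1 (0.0886) or Zmiz1-KO replicate 3 (0.178).

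Of 22 genes of GABA handling and of interneuron specification, none was called by limma or limma-voom at an adjusted p of 0.05. An unadjusted p of 0.05 in limma was reached by 10, against 11.0% of all tested genes. The mean was higher in the Zmiz1-KO-labelled libraries for 19 of the 22, against 49.9% of all tested genes. Their median log2 fold change was 0.15. Satb1, a chromatin organizer that acts in the maturation of Sst cells and is also active in excitatory neurons, had a log2 fold change of -0.27, an adjusted p of 0.0932 and groups that did not overlap. Without wildtype replicate 3 its adjusted p in limma was 0.0356. With any other single library left out, the adjusted p of Satb1 lay between 0.101 and 0.412. Dlx6, a factor of the ventral telencephalon, stood at 131, 153 and 136 normalized counts in wildtype and at 206, 190 and 212 under the other label, also without overlap, with a log2 fold change of 0.54 (SE 0.13) and an adjusted p of 0.123. Lhx6, which specifies the cells of the medial ganglionic eminence, stood at 1168, 1407 and 1361 normalized counts in wildtype and at 1566, 1518 and 1646 in the Zmiz1-KO-labelled libraries, a log2 fold change of 0.27 with an adjusted p of 0.123. Without wildtype replicate 2, Gad1 had a log2 fold change of 0.41 with an adjusted p of 0.0082, and Slc32a1 one of 0.44 with an adjusted p of 0.0316, both in limma, against 0.596 and 0.170 without wildtype replicate 1.

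The genes listed with reelin signaling gave no call among 14 tested genes by limma or limma-voom. Only 1 passed at an unadjusted p of 0.05 in limma, against 11.0% of all tested genes. The mean was higher in 4 and lower in 10, and the median log2 fold change was -0.03. The smallest p values belonged to Nr2f1 (log2 fold change of -0.14, adjusted p of 0.283) and Vldlr, a reelin receptor (-0.08, adjusted p of 0.471). Markers of Cajal-Retzius cells were low. Trp73, the transcription factor that marks these cells, stood at 237, 240 and 239 normalized counts in wildtype and at 149, 201 and 201 in the Zmiz1-KO-labelled libraries. The groups of Trp73 did not overlap, and its log2 fold change of -0.39 had an adjusted p of 0.28 in limma. None of the 5 markers was called by limma or limma-voom. The mean was higher in the Zmiz1-KO-labelled libraries for 2 of them and lower for 3. At an unadjusted p of 0.05 in limma 1 passed, against 11.0% of all tested genes. The second smallest p was that of Nhlh2, at -0.49 with an adjusted p of 0.497, and -0.18 without wildtype replicate 2. Trp73 was at -0.25 without Zmiz1-KO replicate 1. The summed level of the 5 markers was 387 to 555 in wildtype and 299 to 436 in the Zmiz1-KO-labelled libraries, and its part in the level of Reln was not tested.

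The genes whose values ran most like those of Sst over the 6 libraries, by Pearson correlation of log2 values, were Igfbp6 (r = 0.999), Jund (r = 0.998), Lypd1 (r = 0.992), Nt5m and Aldoa (r = 0.990 each). Of all tested genes, 69 had an r above 0.95 with Sst. With 6 points that share the difference between the groups, such values are a description of these libraries.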

How the data were processed

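Reads of unstranded TruSeq v2 libraries were aligned by the authors to mm10 with STAR, counted per gene and normalized with DESeq2 in Illumina BaseSpace. The deposited table holds these normalized counts as a signal value per gene, 1 column per library. Tool versions, gene annotation and counting settings are not given in the sources used here. The most common low value of each library gave an estimate of the number of reads, taking that value as 1 read. Whole reads could not be recovered for all genes.

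Of 24972 genes, those that reached 10 in 3 or more libraries were tested on log2(value + 1) with limma (version 3.58.1, R 4.3.3, intensity trend, robust), without covariates, and called at an adjusted p of 0.05. A fold change on this scale understates the change of low genes. Single values were compared with two-sided exact permutation tests (SciPy 1.17.1). The fit was tested on simulated data with known changes. Of 200 genes changed 1.25-fold it recovered 57%, with 6 false calls. Smaller changes were not simulated.

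The 10 genes and the lists beside them were chosen with earlier results of these data known. The text names the 10 genes, Zmiz1 and the 5 genes most like Sst. From each list it names the called genes or else the 2 with the smallest p. Gad1, Gad2, Slc32a1, Cckar, Lhx6, Drd2, Avp, Pmch, Oxt, Hcrt, S100b and Necab1 were added after their values were seen. Coordinates are from GENCODE M21 (GRCm38, the assembly of mm10).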

Additional observations from a re-analysis of the deposited data

How the results depend on the processing

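Of 171 alternative values of the 9 tested genes, 160 kept the direction and, where a p was given, the side of the threshold. The direction could not turn where only the filter, the robust estimation, the block, the Xist covariate or the threshold changed. In those the log2 fold change stayed the same. The values relative to Gad1, Gad2 and Slc32a1 have no adjusted p and were judged by direction alone. Sst passed 0.05 in 3 of them, with the replicate block (adjusted p of 0.0212 in limma), without Zmiz1-KO replicate 2 and with only the libraries without Xist, and it passed a threshold of 0.1, which was added after seeing the data. The count of called members, 0 as reported, was 1 under each of these 4 and 0 to 1 with single libraries left out. Relative to the mean log2 value of Gad1, Gad2 and Slc32a1, which lowers every gene alike by 0.32, the sign turned for Sst (-0.12), Npy (-0.19), Vip (-0.0081), Crh (-0.19), Calb1 (-0.11), Calb2 (-0.13) and Reln (-0.27).

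The number of all genes called, 65, was 17 without robust estimation, 168 with the replicate block, 153 with only the libraries without Xist, 106 at an adjusted p of 0.1, and 12 to 152 with single libraries left out. The single call among receptors and processing genes, Vgf, was lost without robust estimation and with only the libraries without Xist (0 each), and the count was 0 to 1 with single libraries left out. Among the 22 GABAergic and lineage genes, 0 as reported, 6 were called with the replicate block, 1 with Xist as a covariate, 1 at an adjusted p of 0.1, and 0 to 2 with single libraries left out. Without wildtype replicate 2 the 2 calls were Gad1 and Slc32a1. The cause of these shifts was not tested. Libraries with the same replicate number did not deviate together (correlations of -0.005, -0.113 and -0.006, and none correlated best with its own number), so the pairing by number was only an alternative.

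A count test on whole reads was not run, since the values are already normalized. With 3 libraries a group, the 95% intervals of Crh, Cort and Calb2 reach more than 0.3 to each side of the estimate. Pvalb rests on very few reads. The scalings between libraries moved the median of all genes by less than 0.1.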

Other observations

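Beyond the 10 genes, 19 other peptides and subtype markers of interneurons were tested. None was called by limma or limma-voom, and 2 passed at an unadjusted p of 0.05, against 11.0% of all tested genes. The mean was higher in the Zmiz1-KO-labelled libraries for 12 and lower for 7, with a median log2 fold change of 0.11. Nos1, the nitric oxide synthase that marks long-range Sst cells, stood at 2780, 2737 and 2751 normalized counts in wildtype and at 2994, 3069 and 3008 in the Zmiz1-KO-labelled libraries. The groups of Nos1 did not overlap, and its log2 fold change of 0.13 had an adjusted p of 0.236. Chodl, another marker of those cells, had 133, 201 and 137 against 157, 141 and 134 normalized counts, with overlap. Lamp5, a marker of neurogliaform cells, had a log2 fold change of 0.16 and an adjusted p of 0.432, also without overlap. Penk, the enkephalin precursor, which is abundant in the striatum, stood at 1498, 2344 and 2322 against 2639, 2913 and 2758, with a log2 fold change of 0.46 and an adjusted p of 0.547 in limma, and of 0.25 and 0.0998 without wildtype replicate 1. Nos1 and Lamp5 were named for their p, and Chodl and Penk after their values were seen.

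Of 16 other calcium-binding and calcium-sensing genes none was called by limma or limma-voom. At an unadjusted p of 0.05 in limma 5 passed, against 11.0% of all tested genes. Among these 5, S100b (log2 fold change of -0.27) and Necab1 (-0.17) were lower in the Zmiz1-KO-labelled libraries. The mean was higher in 9 of the 16 and lower in 7, with a median log2 fold change of 0.04. Necab2 stood at 1723, 1728 and 1837 normalized counts in wildtype and at 2031, 1963 and 2082 in the Zmiz1-KO-labelled libraries, a log2 fold change of 0.20 with an adjusted p of 0.123. Pcp4, a calmodulin regulator, had a log2 fold change of 0.17 and an adjusted p of 0.216. In Necab2 and Pcp4 the groups did not overlap, and their levels relative to Calb1 and Calb2 were not tested. Of the 16, the Zmiz1-KO-labelled libraries lay wholly above wildtype in 4 and wholly below in 1, against 8.10% and 8.16% of all tested genes.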
